A study of Homo sapiens with 6 samples.

Results

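The machinery that makes microRNAs and silences messenger RNAs with them is described here through 10 genes: DICER1, DROSHA, DGCR8, XPO5, TARBP2, PRKRA, AGO1, AGO2, TNRC6A and GEMIN4. Every probe set whose annotated gene symbols include 1 of these names was taken, which gave 34 probe sets of the 54613 tested and all 10 genes. They were measured in MCF10A, a line of immortalised human breast epithelial cells that do not form tumours. One group, called the mimic, had been transfected with miR-221 and miR-222, and the other, called the control, with a control microRNA. Each group held 3 biological replicates, with 1 single-colour array per replicate, and both groups were of the same cell line and underwent transfection. Nothing states that the replicates were separate cultures, so p-values measure the spread between these arrays. No source used here states the dose, how long after transfection RNA was taken, or which control microRNA was used. Values are log2 intensities, and differences are mimic minus control on that log2 scale.

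MicroRNAs are cut from longer transcripts in steps. In the nucleus, DROSHA and its partner DGCR8 release a hairpin, and XPO5 (exportin 5) carries it to the cytoplasm. There DICER1, with the double-stranded RNA binding proteins TARBP2 or PRKRA, cuts the hairpin to a short duplex. One strand is loaded into an Argonaute protein such as AGO1 or AGO2, and Argonaute recruits TNRC6A, which calls in the enzymes that shorten and decay the target messenger RNA. GEMIN4 belongs to the SMN complex, which assembles splicing particles, and was also found in complexes with Argonaute. A transfected mimic is a ready-made duplex that needs Argonaute but not the upstream cuts.

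The sequences of the transfected microRNAs are shown because they define the treatment. They come from RefSeq (GRCh38.p14), are written 5′ to 3′, and have the seed, bases 2 to 8, in capitals. The labels do not name the arm, and the 3p arms shown are the strands usually meant by miR-221 and miR-222.
hsa-miR-221-3p (chrX:45746180-45746202, minus strand): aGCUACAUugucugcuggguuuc
hsa-miR-222-3p (chrX:45747036-45747056, minus strand): aGCUACAUcuggcuacugggu
Both carry the seed GCUACAU, and of the 2370 mature microRNA names in the table these 2 were the ones with it. In the cell both come from hairpin transcripts, cut first by DROSHA and then by DICER1. The hairpins are listed as sequences of 110 bases. In the hairpins below, the capitals mark the mature arms that the table lists.
MIR221 hairpin (chrX:45746157-45746266, minus strand): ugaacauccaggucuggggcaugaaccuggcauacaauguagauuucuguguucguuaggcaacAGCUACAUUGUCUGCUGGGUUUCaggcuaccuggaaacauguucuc
MIR222 hairpin (chrX:45747015-45747124, minus strand): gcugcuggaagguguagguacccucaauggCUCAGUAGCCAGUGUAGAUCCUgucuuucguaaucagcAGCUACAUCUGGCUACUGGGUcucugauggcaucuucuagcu

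The arrays were alike in scale, with medians from 7.59 to 7.66. Of the 8 measured mammary epithelial markers, all lay above the array median on all 6 arrays. Of the 8, 7 fell at a limma adjusted p under 0.05 over all probe sets (87.5%, where 30.4% of all genes passed in either direction). The summed linear intensity of the 8 was 22900 to 24200 in the mimic and 47000 to 49100 in the control arrays. Of 8 fibroblast markers 2 fell and 1 rose (37.5%). Their summed intensity was 15500 to 16400 in the mimic and 7390 to 7820 in the control arrays, a rise that came from DCN. DCN, a matrix proteoglycan gene, was the 1 that rose, from 12.06 to 13.72 in mean log2 intensity, while FAP and LUM fell and the other 5 did not pass. The fibroblast markers COL3A1, PDGFRB and LUM lay below the array median on every array. Of 6 endothelial markers 1 fell (16.7%), KDR, from 9.31 to 7.84, and the other 5 did not pass. The sums were 1730 to 1840 against 2010 to 2200, a fall that came from KDR. CDH5 and CLDN5 lay below the array median. Of 5 measured blood markers 1 fell, CD14, and 1 rose, ITGAM, with sums of 1770 to 1830 against 2230 to 2310, and PTPRC lay below the array median. The part of these shifts in the results below was not tested. The 3′ minus 5′ signal, a measure of RNA integrity, differed by 0.04 for ACTB (exact two-sided permutation p = 0.3) and by 0.04 for GAPDH (exact p = 0.1, the smallest that 3 arrays against 3 allow).

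The comparison asked how RNA of the machinery differed between mimic and control cells. With each gene read at its probe set of highest mean, DICER1 and GEMIN4 fell most, and TARBP2, PRKRA and DROSHA fell by less. The DROSHA call was lost under 7 of 12 other settings. TNRC6A at 224704_at (-0.48) and AGO1 at 228120_at (-0.44) also fell, but not at their probe sets of highest mean. Of the 34 probe sets, 12 fell and 1 rose (limma, Benjamini-Hochberg adjusted p under 0.05 over all probe sets). Over all 54613 probe sets, 13.1% fell and 11.6% rose, 24.8% in all. The median difference was -0.08 over the 34 and 0.03 over all probe sets. The 34 were bright, with a median level of 9.01, and 27 of them lay above the array median on all 6 arrays. After quantile normalization again, 10 of the 34 fell and 2 rose. There the bright DROSHA probe set 218269_at moved from -0.22 to -0.15, and the dim DICER1 probe set 216260_at from 0.08 to 0.04. The part of brightness in these counts was not tested. The 3 mimic arrays lay entirely below the 3 control arrays at 15 of the 34 and entirely above at 3, where 18.2% and 20.9% of all probe sets did so (39.2% in either direction). A second gene is listed beside the member at 7 probe sets, MIR1306 for DGCR8 and CASC7 for AGO2. Among the 27 that list 1 gene, 11 fell and 0 rose by limma, and 14 of the 27 lay entirely below. At an unadjusted limma p under 0.05, 14 of the 27 fell and 0 rose, against 9003 and 10066 of all 54613 probe sets. With each gene read at its probe set of highest mean, 5 of the 10 fell and 0 rose by limma, against 16.3% and 14.1% of all 19775 genes. Those 5 were DICER1, DROSHA, TARBP2, PRKRA and GEMIN4. At an unadjusted limma p under 0.05, 7 of the 10 fell and 0 rose, against 3930 and 4094 of the 19775. With all its probe sets averaged, TARBP2 differed by -0.12 (adjusted p = 0.0945) and PRKRA by -0.07 (adjusted p = 0.529), so neither passed. Under that setting 6 genes fell: DICER1, DROSHA, GEMIN4, XPO5, AGO1 (-0.15, adjusted p = 0.0416) and AGO2, which enters with its 1 own probe set (-0.30, adjusted p = 0.0395 over 19776 genes). That AGO2 probe set missed the threshold over all probe sets and was at -0.16 without mimic replicate 1. Fewer cells holding a transcript and less of it per cell cannot be told apart in these bulk samples.

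**Figure D1:**
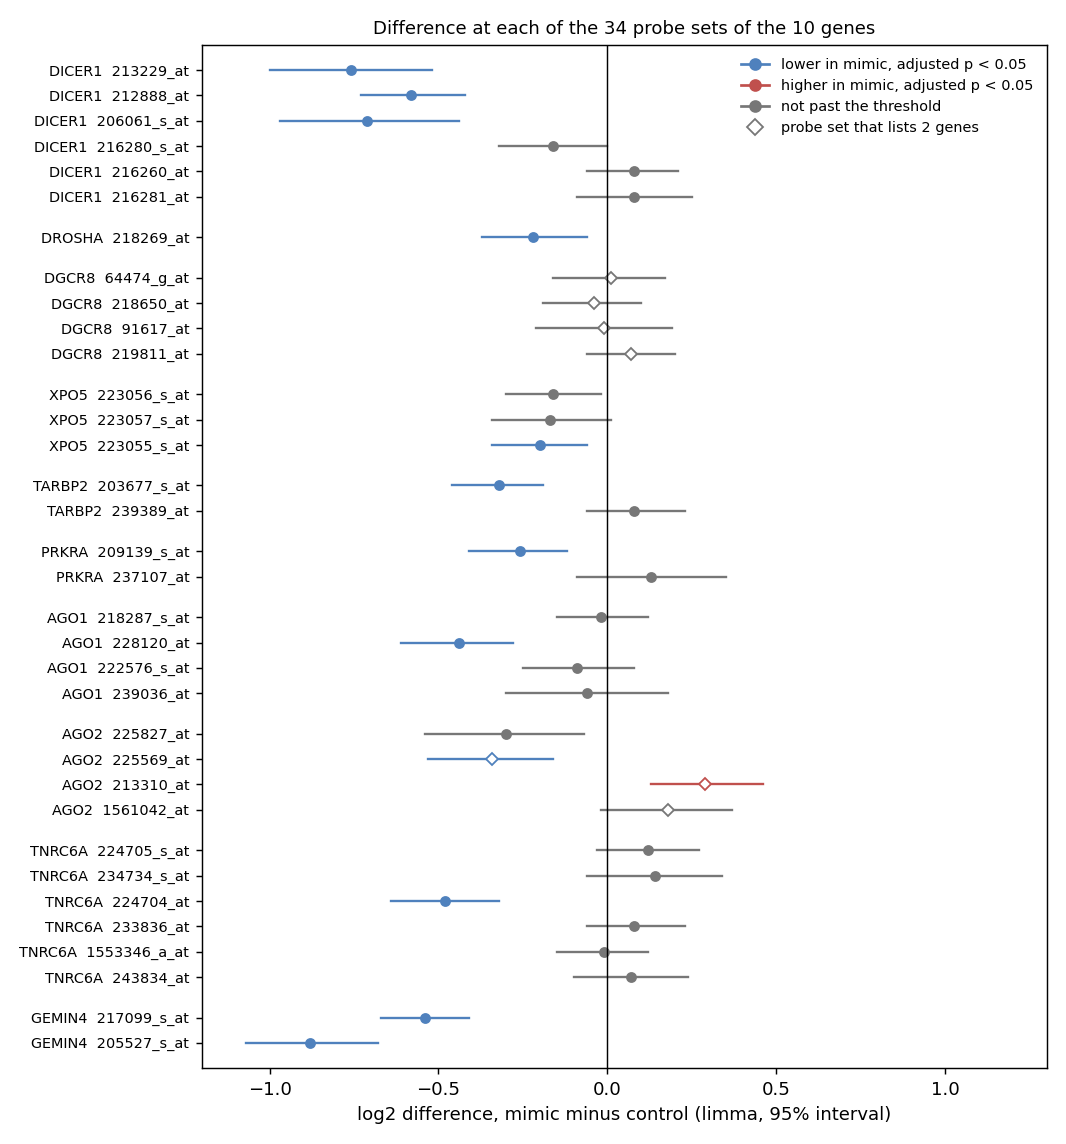
Log2 difference, mimic minus control, at each of the 34 probe sets, with limma's 95% interval; colour marks the call and open diamonds mark probe sets that list 2 genes. All probe sets past the threshold lie left of 0 except 213310_at of AGO2, and the intervals farthest left are those of DICER1 and GEMIN4.

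DROSHA, the nuclease of the nuclear step, has 1 probe set. At 218269_at the control arrays read 10.22, 10.21 and 10.20 and the mimic arrays 9.86, 10.04 and 10.08. Every mimic array read less than every control array, and mimic replicate 1 was the lowest. The difference was -0.22 ± 0.07 (SE, n = 3 per group), 1.16-fold higher in the control, with a limma adjusted p of 0.0431. Leaving out mimic replicate 1 ended that call (-0.15, adjusted p = 0.0947), as did leaving out mimic replicate 2 (adjusted p = 0.0827) or control replicate 1, 2 or 3 (adjusted p = 0.124, 0.105 and 0.0804). It was also lost after quantile normalization again (adjusted p = 0.0655) and with the replicate number as a block (adjusted p = 0.0548).

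DGCR8, the RNA-binding partner of DROSHA, is covered only by 4 probe sets that also list the microRNA gene MIR1306. None of the 4 passed the threshold in limma, and all 4 had unadjusted p-values above 0.05. The differences ran from -0.04 to 0.07. At 64474_g_at the control arrays read 8.97, 8.96 and 9.14 and the mimic arrays 8.93, 9.03 and 9.12, which overlap. The difference there was 0.01, with a 95% interval from -0.16 to 0.17. At 219811_at the mimic arrays (8.11, 8.06 and 8.07) reached down to the highest of the control arrays (7.97, 8.01 and 8.06) without crossing it, and the interval was -0.06 to 0.20. A change of the size seen at the bright DICER1 probe sets lies outside all 4 intervals.

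XPO5, the export receptor, had 3 probe sets with differences from -0.20 to -0.16, and at each all 3 mimic arrays read less than every control array. At 223055_s_at the control arrays read 9.03, 9.18 and 9.10 and the mimic arrays 8.94, 8.90 and 8.85. This was the 1 XPO5 probe set that fell, by 0.20 on the log2 scale (limma adjusted p = 0.042). It did not pass without mimic replicate 2 or 3 (adjusted p = 0.118 and 0.111), nor without control replicate 2 or 3 (adjusted p = 0.155 and 0.0835). It was lost too after quantile normalization again (adjusted p = 0.108) and with the replicate number as a block (adjusted p = 0.0668). The other 2, 223056_s_at (interval -0.30 to -0.02) and 223057_s_at (-0.34 to 0.01), had limma adjusted p-values of 0.0878 and 0.17, and the first passed with array weights (adjusted p = 0.0344). The 3 did not pass a test of unequal change among them (limma diffSplice adjusted p = 0.948). With the 3 averaged, the difference was -0.18 ± 0.05 (SE; limma adjusted p = 0.0205).

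DICER1, the nuclease that cuts the exported hairpin, has 6 probe sets, and they fell into 2 kinds. Of the 6, 3 read well above the array median on every array, and all 3 fell. At 213229_at the control arrays read 10.82, 10.83 and 10.81 and the mimic arrays 9.76, 10.14 and 10.28. The control arrays were nearly equal (SD 0.01, n = 3) and the mimic arrays spread widely (SD 0.27, n = 3), with replicate 1 the lowest and no overlap between groups. The difference was -0.76 ± 0.11 (SE), 1.69-fold higher in the control, with a limma adjusted p of 0.000341.

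The second of these, 212888_at, read 10.54, 10.58 and 10.46 in the control and 9.85, 9.94 and 10.06 in the mimic arrays. Its spread was small in both groups (SD 0.06 and 0.10, n = 3 each), and the difference was -0.58 ± 0.07 (SE; limma adjusted p = 0.000111). At 206061_s_at the control arrays read 10.09, 10.07 and 9.98 and the mimic arrays 9.01, 9.43 and 9.58. Replicate 1 was again the lowest mimic array, the groups did not overlap, and the difference was -0.71 ± 0.12 (SE; limma adjusted p = 0.00119). Without mimic replicate 1 the 3 differences were -0.61, -0.53 and -0.54, and each stayed past the threshold.

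The remaining 3 DICER1 probe sets lay below the array median on all 6 arrays, and none passed the threshold. At 216280_s_at the control arrays read 6.85, 6.80 and 6.69 and the mimic arrays 6.64, 6.51 and 6.71, which overlap. Its difference was -0.16, with an interval from -0.32 to 0.00 (limma adjusted p = 0.14); with array weights it was -0.24 and passed (adjusted p = 0.0156). The mimic arrays at 216260_at (6.75, 6.71 and 6.66) lay just above the control arrays (6.61, 6.63 and 6.65), with a difference of 0.08 and an interval from -0.06 to 0.21. At 216281_at the control arrays read 6.33, 6.58 and 6.54 and the mimic arrays 6.63, 6.49 and 6.56, a difference of 0.08 with an interval from -0.09 to 0.25. No detection calls were used, so whether these 3 read any DICER1 transcript above background is not known.

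The 6 DICER1 probe sets changed by unequal amounts (limma diffSplice over 10524 genes with 2 or more probe sets, adjusted p = 2.8e-06), where 25.8% of those genes did. Without the 40% dimmest probe sets, which removes the 3 dim ones, the rest did not pass that test (adjusted p = 0.718). Averaging all 6 gave -0.34 ± 0.06 (SE), and 213229_at alone gave -0.76, so the size given for DICER1 depends on which probe sets are read.

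**Figure D2:**
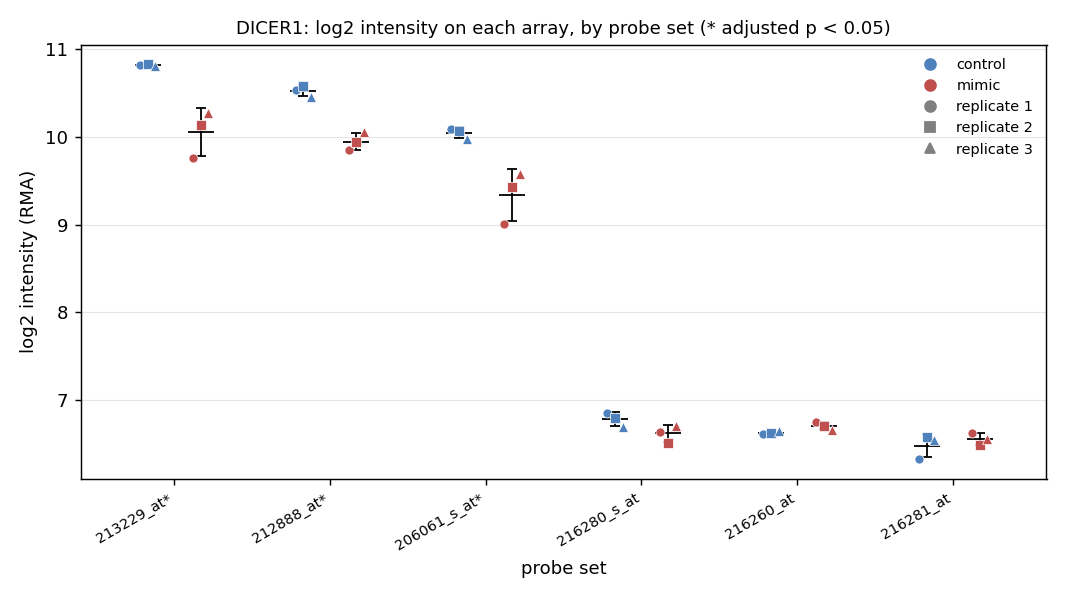
Log2 intensity of the 6 DICER1 probe sets on each array, with the mean and SD of each group (n = 3 each); colour marks the group, the symbol marks the replicate and an asterisk marks an adjusted p under 0.05. The 3 probe sets on the left separate the groups, with mimic replicate 1 lowest, and the 3 on the right lie between 6.33 and 6.85 on every array.

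TARBP2 and PRKRA, related double-stranded RNA binding partners of DICER1, gave the same picture as each other: 1 probe set fell and the other had a difference above 0. At 203677_s_at of TARBP2 the control arrays read 9.94, 10.03 and 10 and the mimic arrays 9.62, 9.67 and 9.70. The groups were far apart for their spread, with a difference of -0.32 ± 0.06 (SE; limma adjusted p = 0.00228). Its other probe set, 239389_at, read 8.15, 8.16 and 8.23 in the control and 8.34, 8.29 and 8.16 in the mimic arrays, a difference of 0.08 with an interval from -0.06 to 0.23. The 2 changes were unequal (limma diffSplice adjusted p = 0.00207).

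PRKRA read 11.05, 11.00 and 11.07 in the control and 10.69, 10.81 and 10.84 in the mimic arrays at 209139_s_at. The groups did not overlap, and the difference was -0.26 ± 0.06 (SE; limma adjusted p = 0.0114). The other PRKRA probe set, 237107_at, lay below the array median on every array, read 6.77, 6.62 and 6.91 against 6.71, 6.90 and 7.08, and overlapped between groups. Its difference was 0.13, with an interval from -0.09 to 0.35. The unequal change of the 2 (limma diffSplice adjusted p = 0.0239) was lost without mimic replicate 2 or 3 (adjusted p = 0.0714 and 0.0531), without control replicate 1 or 2 (0.0852 and 0.0942) and after quantile normalization again (0.0982).

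AGO1, one of the 4 human Argonaute proteins, had 4 probe sets, and 1 fell. At 228120_at the control arrays read 8.69, 8.48 and 8.58 and the mimic arrays 8.04, 8.17 and 8.22, so the groups did not overlap. The difference was -0.44 ± 0.07 (SE), 1.36-fold higher in the control (limma adjusted p = 0.00102). The AGO1 probe set of highest mean, 218287_s_at, read 9.07, 9.10 and 9.11 in the control and 9.01, 9.09 and 9.13 in the mimic arrays. Those groups overlapped, and the interval of the difference, -0.15 to 0.12, does not reach the change at 228120_at. The other 2 had differences of -0.09 and -0.06. The 4 changed by unequal amounts (limma diffSplice adjusted p = 0.0344), a call lost without mimic replicate 1 or 2 (adjusted p = 0.138 and 0.148) and without control replicate 1 (0.198).

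The probe sets that list AGO2, the Argonaute with slicing activity, differed in direction, and those that passed also list CASC7. The 1 probe set that lists AGO2 alone, 225827_at, read 11.19, 11.11 and 11.09 in the control and 10.53, 10.95 and 10.99 in the mimic arrays. The groups did not overlap, and mimic replicate 1 stood lowest. The difference was -0.30 ± 0.11 (SE) with a limma adjusted p of 0.0639, which missed the threshold. Without mimic replicate 1 it was -0.16 (adjusted p = 0.104), and it also missed without mimic replicate 2 (0.0586), without each control array (0.09 to 0.187), after quantile normalization again (0.0941) and with array medians subtracted (0.0519). It passed without mimic replicate 3 (-0.39, adjusted p = 0.0195), without the dimmest probe sets (0.0391), with eBayes trend and robust (0.0424), with array weights (0.0479) and with the replicate number as a block (0.0465).

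The other 3 AGO2 probe sets also list CASC7, so their signal cannot be assigned to 1 gene. Of these, 225569_at fell, from 10.96, 11.02 and 10.96 to 10.47, 10.64 and 10.80 (difference -0.34 ± 0.08 SE; limma adjusted p = 0.00973). In contrast, 213310_at rose, from 9.22, 9.24 and 9.18 to 9.35, 9.58 and 9.58 (difference 0.29 ± 0.07 SE; limma adjusted p = 0.0141), and it was the 1 probe set of the 34 that rose. That rise was lost without mimic replicate 2 (0.26, adjusted p = 0.0725). The groups did not overlap at either, so the 2 moved in opposite directions on the same arrays; the difference between them was not tested. The last, 1561042_at, had a difference of 0.18 with an interval from -0.02 to 0.37.

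TNRC6A, the scaffold that links Argonaute to the decay enzymes, had 6 probe sets, and 1 fell. At 224704_at the control arrays read 9.72, 9.63 and 9.65 and the mimic arrays 9.08, 9.16 and 9.32. The groups were clearly apart, with a difference of -0.48 ± 0.07 (SE), 1.40-fold higher in the control (limma adjusted p = 0.000482). The TNRC6A probe set of highest mean, 224705_s_at, read 10.48, 10.55 and 10.48 in the control and 10.54, 10.60 and 10.72 in the mimic arrays, and the groups overlapped. Its difference was 0.12, with an interval from -0.03 to 0.27; it passed as higher after quantile normalization again (0.19, adjusted p = 0.0267). The other 4 ran from -0.01 to 0.14, none passed, and their groups overlapped. The 6 changed by unequal amounts (limma diffSplice adjusted p = 8.6e-05), and with all 6 averaged the difference was -0.01 ± 0.05 (SE).

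GEMIN4 was the 1 member with more than 1 probe set at which every probe set fell. At 217099_s_at the control arrays read 10.19, 10.18 and 10.20 and the mimic arrays 9.61, 9.65 and 9.69. Replicates were tight in both groups (SD 0.01 and 0.04, n = 3 each), and the difference was -0.54 ± 0.06 (SE; limma adjusted p = 4.08e-05). At 205527_s_at the control arrays read 9.07, 9 and 8.94 and the mimic arrays 7.93, 8.27 and 8.19. The difference, -0.88 ± 0.09 (SE), was the largest of the 34 and came to 1.84-fold higher in the control (limma adjusted p = 2.32e-05). The 2 GEMIN4 changes were unequal (limma diffSplice adjusted p = 0.0275), a call lost without control replicate 1 or 2 (adjusted p = 0.128 and 0.0869).

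**Figure D3:**
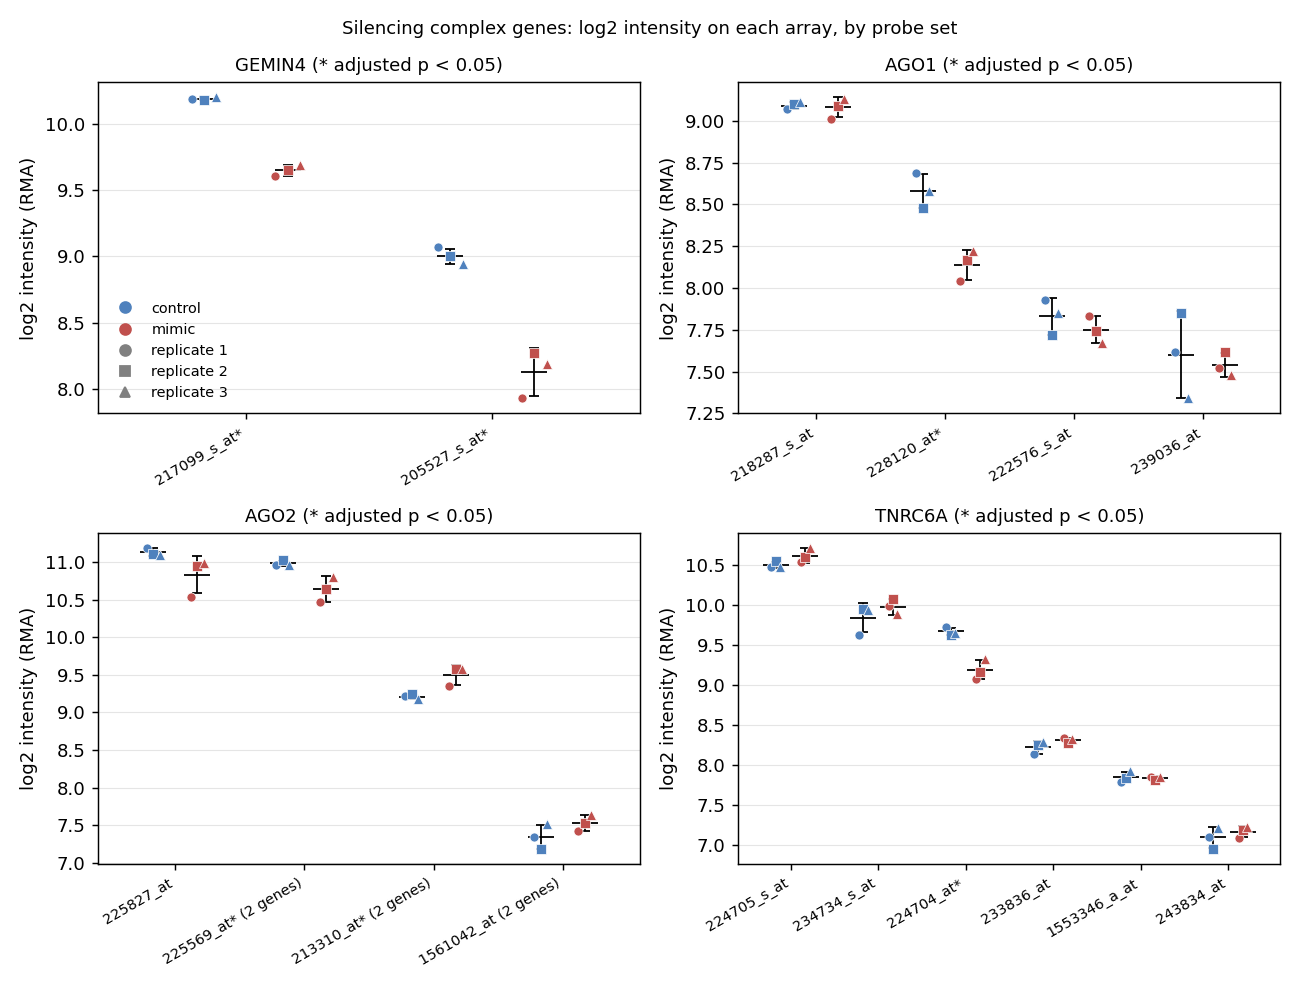
Log2 intensity on each array for the probe sets of GEMIN4, AGO1, AGO2 and TNRC6A, with the mean and SD of each group (n = 3 each); colour marks the group, the symbol the replicate, and an asterisk an adjusted p under 0.05. Both GEMIN4 probe sets separate the groups, and AGO1 and TNRC6A do so at 1 starred probe set each. The AGO2 panel shows 1 starred probe set lower and 1 higher in the mimic, both of which also list CASC7.

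The mimic arrays were ordered alike at most of the member probe sets that fell. Mimic replicate 1 was the lowest mimic array at 11 of the 12 probe sets that fell, and mimic replicate 3 the highest at 10 of the 12. Across all 34 member probe sets, mimic replicate 1 was the lowest at 23 and mimic replicate 3 the highest at 24. Over all probe sets, mimic replicate 1 was the lowest mimic array at 41.8% and mimic replicate 3 the highest at 38.4%. The probe sets share arrays, so they are not independent counts. Without mimic replicate 1, 11 member probe sets fell, and without mimic replicate 3, 12 did. All 12 probe sets that fell lay above the array median on all 6 arrays, as did 14 of the 21 that did not pass; 5 of those 21 lay below it on all 6.

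Outside the members, 5 genes had the profile over the 6 arrays most like that of DICER1 at 213229_at, by the root mean square difference of centred log2 values among 19766 genes. These were STS, a steroid sulfatase (0.046), PDGFA, a growth factor (0.05), PRKDC, a kinase of DNA repair (0.055), EZH2, a histone methyltransferase (0.057), and HOOK1, a cargo adaptor on microtubules (0.061). STS read 9.10, 9.02 and 8.99 in the control and 8.07, 8.39 and 8.49 in the mimic arrays, with mimic replicate 1 lowest as for DICER1. Their differences ran from -0.82 for PDGFA to -0.68 for EZH2, and DICER1 was at -0.76. They were chosen for this likeness, so it is a description.

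Beyond the 10 members, 72 genes of the pathway were listed by role, and 70 had a probe set that lists 1 gene. Each is read at its probe set of highest mean, to which the values below belong unless another probe set is named. Of these 70, 19 fell and 8 rose, or 38.6%, where 30.4% of all genes passed in either direction; their median difference was -0.06, against 0.03 over all genes. The 8 became 15 after quantile normalization again and 14 with array weights. The largest changes of the 70 were rises, in the tailing enzyme gene TUT7 and the exonuclease gene XRN1.

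None of the 4 paralogs of members passed in limma at the probe set of highest mean (1 had an unadjusted p under 0.05): the Argonautes AGO3 (-0.11 ± 0.08 SE) and AGO4 (-0.05 ± 0.09 SE), and the TNRC6A relatives TNRC6B (-0.18 ± 0.08 SE) and TNRC6C (0.17 ± 0.09 SE), with limma adjusted p-values of 0.376, 0.721, 0.142 and 0.205. Other probe sets differed from these. TNRC6B fell on 5 of its 7 probe sets, by 0.40 on the log2 scale at 238468_at (limma adjusted p = 0.0027). AGO3 fell on 2 of its 4, by 0.45 at 235782_at (limma adjusted p = 0.00348). AGO4 passed on 0 of its 4 and TNRC6C on 0 of its 7 in limma, and each of these 11 also had an unadjusted p above 0.05.

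Among 11 cofactors of the nuclear step, 4 fell and 1 rose (45.5%, where 30.4% of all genes passed). The helicase gene DDX17 rose on 3 of its 5 probe sets, by 0.44 ± 0.07 (SE) at the one read here. NCBP1, a subunit of the nuclear cap-binding complex, fell by 0.37, SAFB2 by 0.36 and ERH by 0.30 on the log2 scale. NCBP1 fell on both its probe sets, SAFB2 on 1 of its 2 and ERH on its 1. RAN, the GTPase that XPO5 needs to carry its cargo, read 12.82, 12.86 and 12.76 in the control and 12.26, 12.37 and 12.33 in the mimic arrays. It fell by 0.49 ± 0.06 there (SE; limma adjusted p = 0.000131), and the groups did not overlap; both its probe sets fell.

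Of 13 cofactors of the silencing complex, 3 fell and 0 rose by limma (5 and 2 at an unadjusted p under 0.05). The share that passed was 23.1%, below the 30.4% of all genes. FMR1, an RNA-binding protein that associates with Argonaute, read 11.36, 11.37 and 11.26 in the control and 10.62, 10.68 and 10.77 in the mimic arrays. It fell by 0.64 ± 0.07 there (SE; limma adjusted p = 2.89e-05), and both its probe sets fell. AJUBA, a LIM-domain scaffold, fell by 0.39 and the helicase gene DHX9 by 0.33. AJUBA fell on 3 of its 4 probe sets and DHX9 on all 3 of its own. The other 10 did not pass in limma.

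Of 13 genes of poly(A) tail shortening, 3 fell and 1 rose (30.8%, near the 30.4% of all genes that passed). The genes of this list that changed most were related subunits of the CCR4-NOT complex with opposite signs. CNOT6, a deadenylase subunit, read 11.00, 10.95 and 10.82 in the control and 9.97, 10.04 and 10.23 in the mimic arrays. It fell by 0.84 ± 0.08 there (SE; limma adjusted p = 1.6e-05), and both its probe sets fell. CNOT8, a deadenylase subunit of another family, read 11.12, 11.17 and 11.13 in the control and 11.90, 11.92 and 11.94 in the mimic arrays. It rose by 0.78 ± 0.06 there (SE; limma adjusted p = 2.36e-06), and all 3 of its probe sets rose. CNOT9 fell by 0.43 at the probe set read, and 3 of its 6 fell. PABPC1, the cytoplasmic poly(A)-binding protein gene, fell on 1 of its 2 probe sets, by 0.17 (limma adjusted p = 0.0481). That call was lost without each of the 6 arrays in turn (adjusted p from 0.0534 to 0.145) and after quantile normalization again (0.0876).

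Of 10 decapping and decay genes, 3 fell and 2 rose (50%, where 30.4% of all genes passed). XRN1, the exonuclease that degrades decapped RNA, read 9.71, 9.61 and 9.68 in the control and 10.65, 10.72 and 10.88 in the mimic arrays. It rose 2.12-fold there (limma adjusted p = 9.68e-07), and the groups lay far apart; 3 of its 4 probe sets rose. DCP2, the decapping enzyme gene, fell by 0.48 ± 0.09 (SE) at the probe set read, and 2 of its 4 fell. PATL1 fell by 0.31, and 3 of its 5 probe sets fell. DDX6 fell on 1 of its 3 probe sets, and DCP1B rose on its 1 probe set. The smaller changes of DDX6 (-0.26) and DCP1B (0.28) passed over all arrays but not without some of them: DDX6 was lost in 5 of the 6 cases, all but mimic replicate 3 (adjusted p from 0.0516 to 0.13), and DCP1B without mimic replicate 2 or 3 or control replicate 2 or 3 (0.0703 to 0.0819) and with array medians subtracted (0.0562).

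Of 11 genes of microRNA tailing and turnover, 3 rose and 1 fell (36.4%, where 30.4% of all genes passed). TUT7, a terminal uridylyltransferase that adds uridines to RNA ends, read 11.57, 11.51 and 11.55 in the control and 12.61, 12.74 and 12.88 in the mimic arrays. All 5 of its probe sets rose, and the one read here rose 2.30-fold (limma adjusted p = 5.78e-07). Its relative TUT4 read 10.68, 10.63 and 10.62 in the control and 11.18, 11.32 and 11.37 in the mimic arrays, and rose 1.56-fold there (limma adjusted p = 3.25e-05); both its probe sets rose. PARN, a poly(A)-specific ribonuclease gene, rose by 0.52 and PNPT1, a mitochondrial exonuclease gene, fell by 0.40.

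Of 7 partners of GEMIN4 in the SMN complex, 4 fell and 1 rose (71.4%, where 30.4% of all genes passed). GEMIN6 and STRAP each fell by 0.34 and DDX20, a helicase also found with Argonaute, by 0.30, next to 0.54 and 0.88 at the GEMIN4 probe sets. GEMIN6, STRAP and DDX20 each fell on 1 of their 2 probe sets. The difference from GEMIN4 was not tested. GEMIN8 went the other way: it read 8.88, 8.89 and 8.81 in the control and 9.35, 9.57 and 9.56 in the mimic arrays, and rose by 0.63 ± 0.07 there (SE; limma adjusted p = 6.78e-05); all 3 of its probe sets rose.

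**Figure D4:**
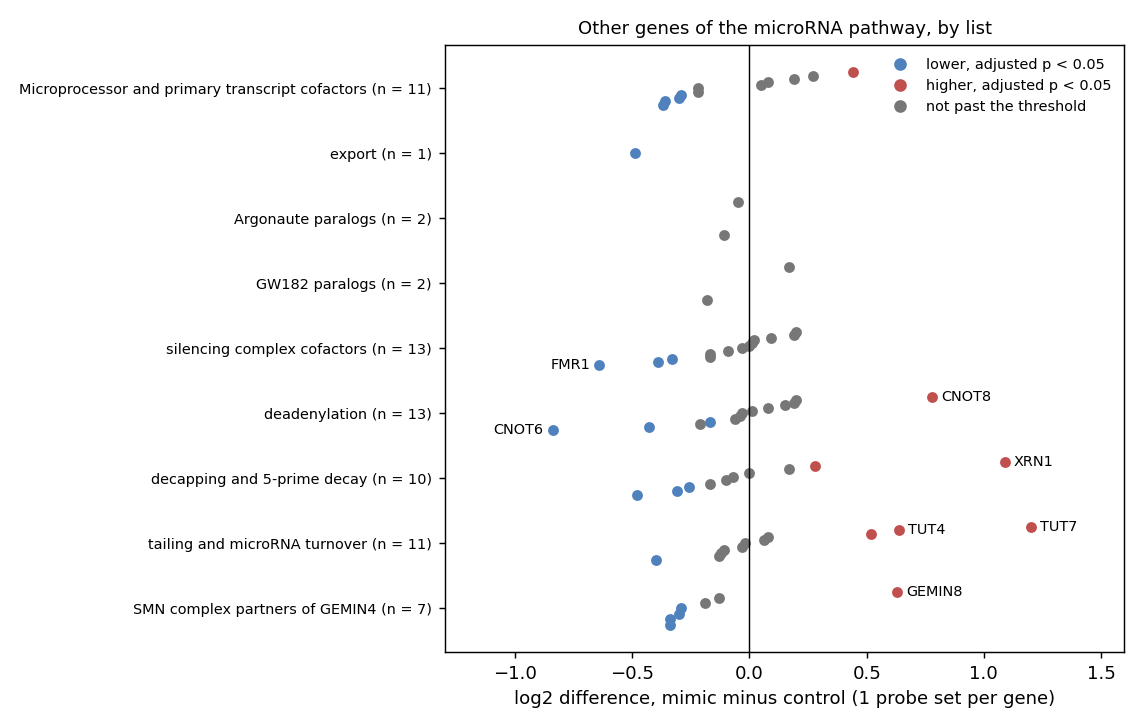
Log2 difference, mimic minus control, of the 70 measured pathway genes outside the 10 members, 1 probe set per gene, grouped by role; blue and red mark genes lower and higher in the mimic at an adjusted p under 0.05, and genes past 0.6 are named. TUT7 (1.20) and XRN1 (1.09) lie farthest right and CNOT6 (-0.84) farthest left.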

How the data were processed

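The deposited values are log2 intensities, 1 per probe set and array. The authors made them with RMA, which corrects background, equalises the arrays and merges the probes of a set, per the submitters' processing notes; no version or setting is stated in the sources used here. That the scale is log2 follows from the range of the values. Because RMA equalises the arrays, a shift in total RNA would be invisible. Of 54675 probe sets, 62 controls were left out. The platform annotation gave 1 symbol for 41091 probe sets. Gene coordinates are not given, because no build is named for the probes.

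All 6 arrays entered 1 comparison, mimic against control, with limma 3.58.1 (lmFit, eBayes without trend) in R 4.3.3, Benjamini-Hochberg over 54613 probe sets, threshold 0.05. Intervals are 95% intervals from that fit, unadjusted. Unequal change among probe sets of a gene was tested with limma's diffSplice over 10524 genes; DGCR8 entered with its shared probe sets. Each gene outside the members was represented by its brightest probe set on average. The text names every member probe set, the Argonaute and TNRC6 paralogs, up to 3 of the largest rises and of the largest falls past the threshold in each list, and the 5 genes most like DICER1; other probe sets of AGO3 and TNRC6B, and markers by name, were named after their values were seen. Of the 72 listed genes, 2 were not analysed here. The members and lists were chosen with earlier results of these data known. In simulated data, 200 of 54613 probe sets were changed, and noise was drawn independently for each value. There the fit recovered 84% of changes of 0.5 and 100% of changes of 1 on the log2 scale, and 5.15% of calls were unchanged. For diffSplice, on 10524 genes, the rates were 67% and 98%, with 7.3% of calls unchanged. In the real data 24.8% of probe sets passed and arrays shared deviations across probe sets, so these rates need not hold for them. Same-numbered arrays of the 2 groups had deviations correlated at -0.11, 0.08 and 0.08, so the numbers were not taken to pair them. Figures were drawn with matplotlib 3.10.9.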

Additional observations from a re-analysis of the deposited data

How the results depend on the processing

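The settings were extended to named genes outside the members once results were known. Among 403 values of the 34 member probe sets under other settings, 367 kept direction and side of the threshold. Direction changed at 14 of the 403, and at 2 of 408 values of named genes outside the members, both of AGO4. All 16 changes of direction were of differences near 0 that did not pass. After quantile normalization again, they were 91617_at of DGCR8 (0.00), 218287_s_at of AGO1 (0.03) and AGO4 (0.01). With array weights, 91617_at was at 0.00 and 218287_s_at at 0.00, and with array medians subtracted 64474_g_at of DGCR8 was at -0.02. With 1 array left out, values ranged from -0.10 to 0.09 for 91617_at, -0.04 to 0.06 for 64474_g_at, -0.04 to 0.01 for 218287_s_at, -0.19 to 0.06 for 239036_at of AGO1, -0.04 to 0.02 for 1553346_a_at of TNRC6A and -0.14 to 0.05 for AGO4.

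The number of member probe sets that fell was 12, from 10 to 12 with 1 array left out, and 3 with a 1.5-fold minimum. It was 15 with array weights, 13 with eBayes trend and robust, 13 without the 40% dimmest probe sets and 10 after quantile normalization again. The number that rose was 1, from 0 to 1 with 1 array left out and 2 after quantile normalization again. It was 0 at an adjusted p under 0.01 or with a 1.5-fold minimum. Of the 10 genes 5 fell, 7 with array weights, 4 to 6 with 1 array left out, 3 at an adjusted p under 0.01 and 1 with a 1.5-fold minimum. After quantile normalization again, 4 genes fell and 1 rose. Of the wider genes, 15 rose after quantile normalization again, 14 with array weights and 5 with a 1.5-fold minimum, under which 2 fell. Over all probe sets, 9576 rose with array weights, 3828 at an adjusted p under 0.01, and 1346 rose and 2244 fell with a 1.5-fold minimum. Stricter thresholds give fewer calls by construction; the cause of the other shifts was not tested. Unequal change was called for 6 of the 8 members tested, where 25.8% of all 10524 genes tested passed. It was called for 3 to 6 with 1 array left out, and for 3 at an adjusted p under 0.01. Without the 40% dimmest probe sets it was called for 4, and PRKRA, left with 1 probe set, could not be tested. DICER1 was lost there (limma diffSplice adjusted p = 0.718). With the replicate block, 11 member probe sets fell and 1 rose; DROSHA and XPO5 lost their calls, AGO2 gained one, PABPC1 lost its call (adjusted p = 0.0944), and no other named call changed.

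No detection calls were used, and the number of arrays limits the precision.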
